A study of Mus musculus with 14 samples.

Results

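The JAK and STAT families were followed through granulosa cells (GCs) of 2 mouse models of genetic obesity. The 9 genes were taken by symbol, after the Ensembl identifiers had been mapped to names: the kinase genes Jak1, Jak2, Jak3 and Tyk2 and the transcription factor genes Stat2, Stat3, Stat5a, Stat5b and Stat6. All 9 were found among the 55414 gene identifiers of the count table. Levels are given as CPM, counts scaled to the library total after TMM, a correction for differences in library composition.

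RNA-seq had been performed on 14 libraries, each made from a pool of about 50 GCs that were freed mechanically from antral follicles. There were 4 libraries of db/db mice (strain B6.BKS(D)-Leprdb/J, mutated in the leptin receptor gene Lepr so that the long form of the receptor is lost while short forms remain) and 4 of their lean controls (CT db). The other model was the ob/ob mouse (B6.Cg-Lepob/J, which lacks functional leptin, the product of Lep), with 3 libraries of mutants and 3 of lean controls (CT ob). All animals were females on chow until 12 wk of age, and the controls were lean littermates that the labels give as wild type, while the column names of the control libraries read as heterozygous. Both mutations are present in the whole body, so GCs from obese animals differ from controls in leptin signalling and in body condition at the same time, and these cannot be told apart. Nothing in the labels says whether 2 libraries of a group shared an animal, so p-values measure the spread between these libraries.

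Library totals ran from 2204686 to 8367593 counts, and 3 counts, taken as the limit of detection, amounted to 0.369 to 1.30 CPM. As a check of the cell type, all 14 granulosa cell markers had more than 3 counts in every library. None of the 12 immune markers did, and the T cell gene Cd3e was at 0 in every library of CT db, db/db and ob/ob. Immune transcripts were still present. The macrophage marker Cd68 gave 4 to 13 counts in CT db and 2 to 7 in db/db. It gave 7 to 19 in CT ob and 13 to 26 in ob/ob. Of the mutated genes, Lep gave 2 counts in 1 library of CT ob, 3 counts in 1 library of ob/ob and 0 in the other 12 libraries. Lepr gave 1 to 6 counts in CT db, 0 to 3 in db/db, 3 to 12 in CT ob and 4 to 17 in ob/ob. Counts per gene this low, which also do not separate the receptor forms, could not check the genotypes.

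Janus kinases sit on the inner tails of cytokine and hormone receptors that have no kinase of their own. When a ligand such as leptin, growth hormone, prolactin, interleukin or interferon draws the receptor chains together, the kinases phosphorylate each other on paired tyrosines and then phosphorylate the receptor. STAT proteins dock there, receive a phosphate on a single tyrosine, pair up and enter the nucleus as transcription factors. JAK2 serves the long form of the leptin receptor, with STAT3 as its best known partner, while STAT5 carries prolactin and growth hormone signals. Transcript levels do not report this phosphorylation.

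The tyrosines that switch these proteins on can be read in the coding sequences, which are shown because they hold the features that define the 2 families. Each stretch below was read from the canonical GENCODE vM39 transcript on GRCm39, 5′ to 3′ on the coding strand. Capitals mark the tyrosine codons, a pair in the activation loop of each kinase and a single one behind the SH2 domain of each STAT.
Jak1: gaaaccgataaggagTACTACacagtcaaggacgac
Jak2: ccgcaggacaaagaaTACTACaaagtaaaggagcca
Jak3: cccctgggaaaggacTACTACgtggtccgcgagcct
Tyk2: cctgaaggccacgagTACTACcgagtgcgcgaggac
Stat2: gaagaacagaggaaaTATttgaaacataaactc
Stat3: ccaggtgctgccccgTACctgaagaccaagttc
Stat5a: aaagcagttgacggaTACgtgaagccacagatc
Stat5b: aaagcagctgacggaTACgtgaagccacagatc
Stat6: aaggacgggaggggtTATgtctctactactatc
All 4 kinases carried the same pair of codons. The pair began at codon 1033 in Jak1 (chr4:101013610-101013645, minus strand), 1007 in Jak2 (chr19:29279416-29279451, plus strand), 976 in Jak3 (chr8:72138714-72138749, plus strand) and 1051 in Tyk2 (chr9:21019181-21019216, minus strand). The single tyrosine was codon 688 in Stat2 (chr10:128121538-128121570, plus strand) and 641 in Stat6 (chr10:127494080-127494112, plus strand). It was codon 704 in Stat3, where the stretch crosses an exon junction (chr11:100780726-100783906, minus strand). In Stat5a it was codon 694 (chr11:100772566-100772598, plus strand), and in Stat5b codon 699 (chr11:100675096-100675128, minus strand).

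Stat3, Stat5a and Stat5b lie side by side on chromosome 11, and Stat5a and Stat5b are near copies of each other. Their coding sequences were 90.7% identical over 2343 aligned bases, and the encoded proteins, of 793 and 786 residues, were 93.6% identical. The longest coding stretch that the pair shares without a single difference was 324 bases long, over 4 times the 75-base reads. Its first 150 bases are shown because a read from within the stretch cannot be given to either gene. The whole stretch spans 3 exons of each gene (Stat5a, chr11:100764849-100765809, plus strand; Stat5b, chr11:100688567-100689527, minus strand).
Stat5a and Stat5b: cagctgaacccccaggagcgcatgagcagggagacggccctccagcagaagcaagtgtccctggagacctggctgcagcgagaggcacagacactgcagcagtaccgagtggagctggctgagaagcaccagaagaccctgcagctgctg
Of all 75-base windows of the canonical Stat5a transcript, 387 of 3884 were also present in Stat5b. Exons of other genes on the opposite strand covered 1950 bases of the Jak1 transcript (Raver2), 425 of Stat5a (Stat3 and Gm72578), 346 of Stat3 (Gm46295), 225 of Jak2 (Gm59364), 77 of Stat6 (Nab2) and 48 of Tyk2 (Gm69642). For Jak3 the overlap was 1261 bases, with B3gnt3 on the opposite strand and Insl3 on the same strand. Stat2 and Stat5b overlapped no other exon. Counts of the overlapped members could miss or include reads of the partner. The strand setting of the counting is not given in the sources used here. Read on either strand, 1878 of 5566 windows of Jak1 were also present in Raver2. For Jak3 it was 1114 of 6203, in B3gnt3 or Insl3. Raver2, the partner of the longest overlap, had 7.18 to 17.2 CPM over the 14 libraries, against at least 683 CPM for Jak1. Reads left out as ambiguous would be missing from both genes, so the level of Raver2 sets no limit on them.

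Jak1, the kinase used by the widest range of cytokine receptors, was by far the most abundant member. It lies on chromosome 4 (chr4:101008838-101122487, minus strand; ENSMUSG00000028530). In CT db the 4 libraries held 857, 1295, 1353 and 1239 CPM (mean 1186 ± 224 SD). In db/db they held 954, 1602, 1215 and 1118 CPM (mean 1222 ± 275). These groups overlapped. In CT ob the 3 libraries held 762, 683 and 746 CPM (mean 730 ± 41.9), and in ob/ob 1027, 1454 and 1047 CPM (mean 1176 ± 241). The 3 CT ob libraries were the lowest of all 14, and the remaining groups shared 1 range.

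Jak2 (chr19:29228677-29290505, plus strand; ENSMUSG00000024789), the kinase of the leptin, growth hormone and prolactin receptors, was present at a far lower and flat level. The libraries held 26.1, 41.9, 23.9 and 25.1 CPM in CT db and 32.4, 24.9, 27.7 and 23.1 CPM in db/db. They held 30.9, 25.9 and 30.0 CPM in CT ob and 32.1, 23.8 and 25.2 CPM in ob/ob. Group means lay between 27.0 and 29.3 CPM, and 1 CT db library stood above all others.

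Tyk2 (chr9:21015363-21042689, minus strand; ENSMUSG00000032175), which acts with JAK1 at the type I interferon receptor, was lower again. Its range was 14.5 to 17.7 CPM in CT db, 12.0 to 17.5 in db/db, 13.0 to 22.4 in CT ob and 16.0 to 18.5 in ob/ob. Jak3 (chr8:72123007-72143225, plus strand; ENSMUSG00000031805), the kinase of the common gamma chain receptors of lymphocytes, was close to the limit of detection. It gave 8 to 11 counts per library in CT db, 4 to 8 in db/db, 2 to 21 in CT ob and 5 to 15 in ob/ob, with mean levels of 1.13 to 2.46 CPM. The library with the most Jak3, 21 counts in CT ob (95% Poisson interval 13.0 to 32.1 counts), had a summed immune marker level of 3.07 CPM and no count of the leukocyte gene Ptprc. That marker sum was the lowest of all 14 libraries, which otherwise ran from 3.46 to 34.1 CPM. Intervals and detection limits cover counting error only, since the protocol had no molecular identifiers.

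**Figure D1:**
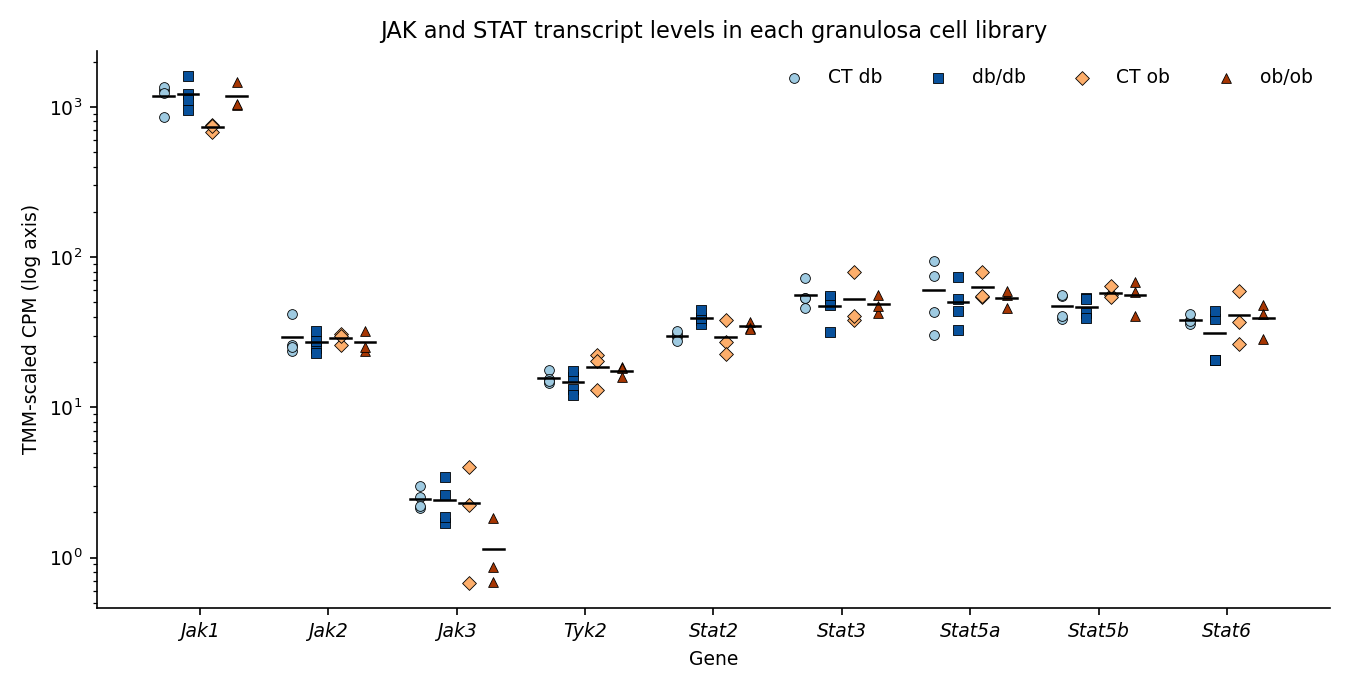
CPM of the 9 JAK and STAT genes (log axis) in each of 14 granulosa cell libraries, with a symbol per library, colours and symbol shapes for the 4 groups and a bar at each group mean. Jak1 lies between 683 and 1602 CPM with the CT ob libraries lowest, Jak2, Tyk2 and the 5 STAT genes lie between 12.0 and 94.1 CPM, and Jak3 lies between 0.682 and 4.03 CPM.

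The 5 STAT genes were found at similar levels. Stat3 (chr11:100775924-100830450, minus strand; ENSMUSG00000004040), the main STAT of leptin and of the interleukin 6 family, gave 53.1, 45.8, 72.7 and 53.2 CPM in CT db and 53.3, 31.8, 55.4 and 47.8 CPM in db/db. It gave 79.6, 38.2 and 40.6 CPM in CT ob and 42.7, 55.9 and 46.9 CPM in ob/ob. The groups overlapped, and the highest value of all was in CT ob.

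Stat2 (chr10:128106352-128128735, plus strand; ENSMUSG00000040033), the partner of interferon signalling, was at 29.2, 30.7, 32.1 and 27.8 CPM in CT db and at 38.3, 36.1, 39.4 and 44.3 CPM in db/db. Every db/db library exceeded every CT db library. In CT ob it was at 38.0, 27.2 and 22.5 CPM and in ob/ob at 37.1, 33.5 and 33.1 CPM, with the CT ob libraries spread on both sides of ob/ob. Stat6 (chr10:127477821-127496862, plus strand; ENSMUSG00000002147), the STAT of interleukins 4 and 13, ranged from 35.8 to 41.7 CPM in CT db, 20.6 to 44.0 in db/db, 26.3 to 59.8 in CT ob and 28.7 to 48.2 in ob/ob.

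Stat5a (chr11:100750177-100776065, plus strand; ENSMUSG00000004043) gave 94.1, 30.2, 74.4 and 43.4 CPM in CT db and 52.4, 43.4, 74.0 and 32.5 CPM in db/db. It gave 53.9, 55.1 and 79.8 CPM in CT ob and 46.0, 56.1 and 59.3 CPM in ob/ob. Stat5b (chr11:100671556-100741589, minus strand; ENSMUSG00000020919) gave 54.8, 38.7, 56.3 and 40.4 CPM in CT db and 53.3, 42.6, 52.4 and 39.0 CPM in db/db. It gave 55.8, 54.4 and 63.8 CPM in CT ob and 40.6, 68.4 and 58.6 CPM in ob/ob. Within CT db the highest Stat5a library was 3.11 times the lowest, the widest spread of any member within a group other than Jak3, and the coefficient of variation of 48.0% stood against 7.07% from counting alone. For Stat5b in the same libraries it was 19.5% against 7.46%.

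The balance of the STAT5 pair also varied between libraries of the same group. Stat5a made up 63.2% of the Stat5a and Stat5b counts in the first CT db library (exact binomial 95% interval 58.9 to 67.3%) and 43.8% in the second (38.3 to 49.4%), so these intervals did not overlap. The group means were 53.9% ± 8.20 in CT db, 51.0% ± 5.50 in db/db, 51.7% ± 3.43 in CT ob and 49.5% ± 4.09 in ob/ob. These differed by less than the SD within CT db. Shared reads of the pair limit what this share can show.

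**Figure D2:**
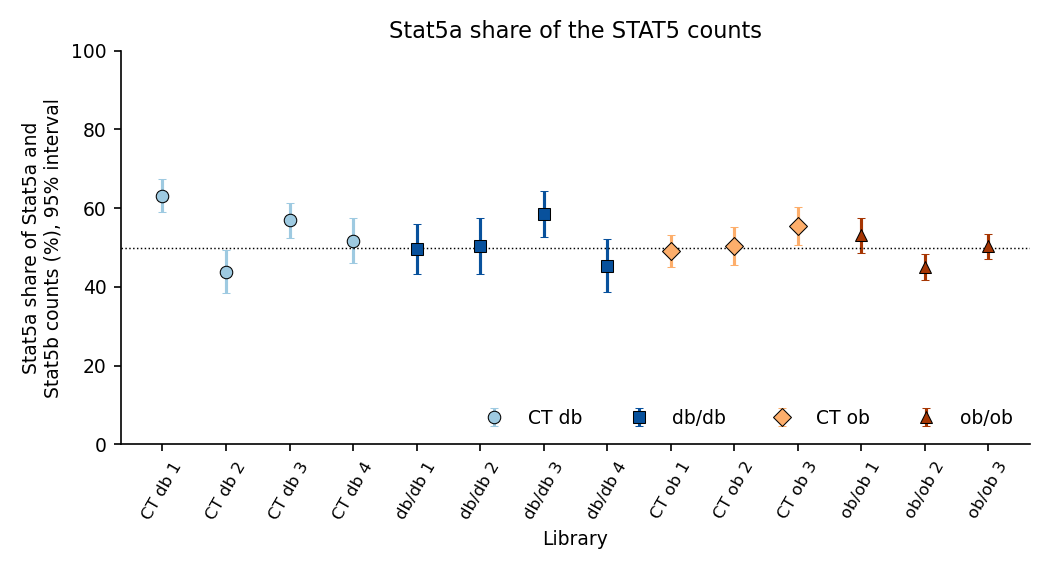
Share of Stat5a in the summed counts of Stat5a and Stat5b (%) for each library, in the order CT db, db/db, CT ob and ob/ob, with exact binomial 95% intervals. The values run from 43.8 to 63.2%, and both extremes are CT db libraries.

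To compare levels between genes, CPM were divided by the length of each gene's exons. As the mean of the 4 group means, Jak1 was at 99.6 CPM per kb of exon, 13.2 times the next member, Stat5b at 7.52. Stat5a (6.90), Stat6 (5.60), Stat2 (5.29), Stat3 (5.06) and Jak2 (4.43 CPM per kb) followed, and neighbours from Stat5b down to Jak2 overlapped in range, with the higher of each pair ahead in 8 to 10 of 14 libraries. Tyk2 at 1.90 CPM per kb was below Jak2 in 14 of 14 libraries, and Jak3 at 0.267 was below Tyk2 in 14 of 14. Jak1 was thus 89.8 to 96.3% of the summed per-kb level of the 4 kinases in each library, and CT ob had the lowest mean share (90.6% ± 0.902, against 94.1 to 94.5% in the other groups). With the canonical transcript as length, an alternative added after the data were seen, Jak1, Tyk2 and Jak3 kept their ranks and Stat3 moved from the 6th to the 3rd rank, so no order among the STAT genes was resolved.

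In the db model, the question was whether loss of the long leptin receptor goes with other levels of these genes. None of the 8 members tested passed the test (edgeR quasi-likelihood, Benjamini-Hochberg adjusted p of 0.05 or less), beside 0.00884% of all 11317 genes, which is 1 gene. At an unadjusted p under 0.05 there was 1 member, as well as 859 genes in all, and DESeq2 called 44 genes and no member. Jak3 was left out by the filter on low counts. That 1 member was Stat2, higher in db/db by 0.40 on the log2 scale (SE 0.146, 95% interval 0.08 to 0.72, adjusted p = 0.574), a 1.32-fold difference in mean CPM. The groups did not overlap, as was the case for 4.14% of all genes tested. A two-sided exact permutation test gave p = 0.0286, the smallest that 4 against 4 libraries allow, which follows from the lack of overlap. Over 15 alternatives the Stat2 difference stayed between 0.34 and 0.46, with adjusted p from 0.362 to 0.982. In the ob model Stat2 was higher in ob/ob by 0.23 (SE 0.244, adjusted p = 0.809) with overlapping groups.

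The 2 members closest to leptin signalling did not pass the test in the db model. Stat3 differed by -0.26 (SE 0.201, 95% interval -0.70 to 0.18) and Jak2 by -0.13 (SE 0.218, interval -0.61 to 0.35). Jak1 differed by 0.04 (SE 0.195, interval -0.39 to 0.46), Stat5b by -0.03 (SE 0.179) and Tyk2 by -0.09 (SE 0.204). Stat5a, with the widest interval, differed by -0.26 (SE 0.339) and Stat6 by -0.29 (-0.82 to 0.24). The median over the 8 members was -0.11, beside 0.01 over all genes tested. Jak3 had mean levels of 2.40 CPM (db/db) and 2.46 CPM (CT db), with overlapping counts.

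**Figure D3:**
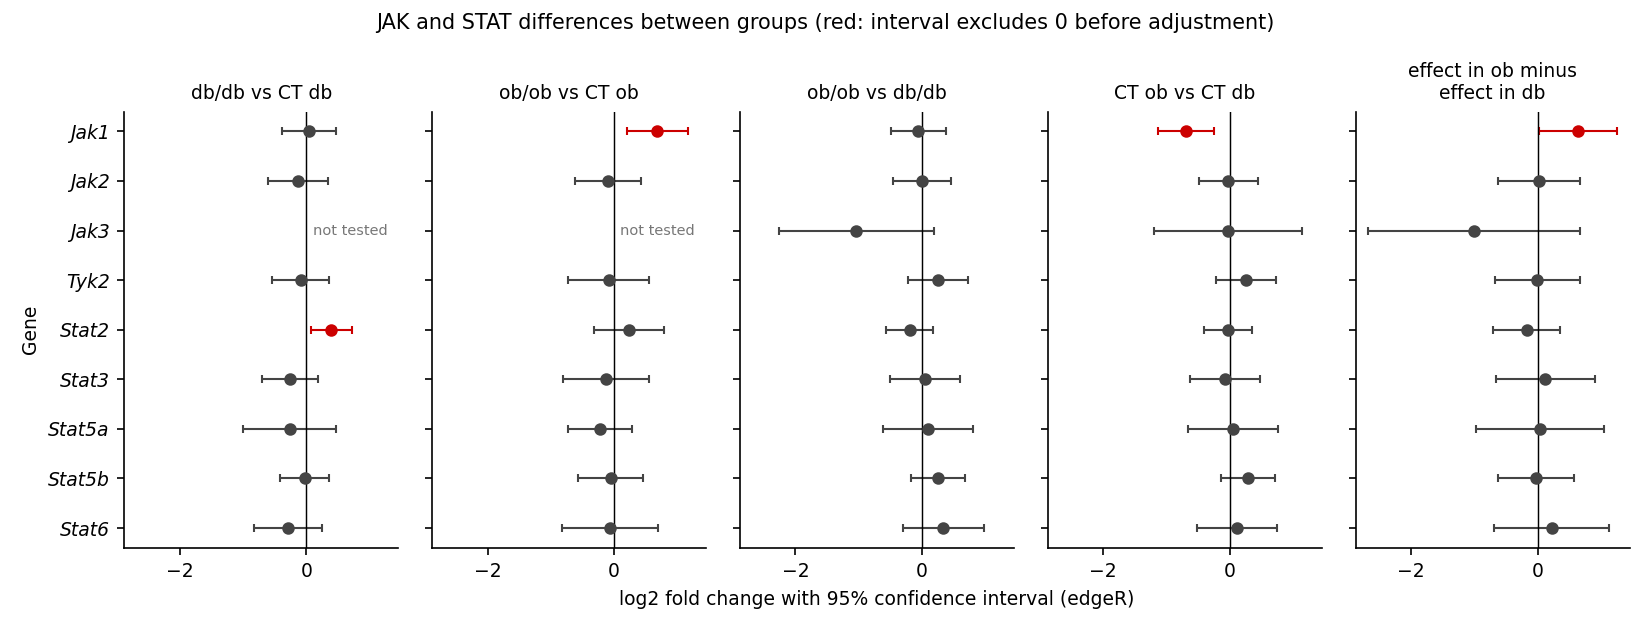
log2 fold changes (points) with 95% confidence intervals (bars) from edgeR for the 9 members in 5 comparisons, the last being the difference between the mutant effects of the models. No member passed the adjusted threshold, and red marks the 4 intervals that exclude 0 before adjustment: Stat2 in db/db against CT db, and Jak1 in ob/ob against CT ob, in CT ob against CT db and in the difference of the effects. The Jak1 intervals in red all involve the same CT ob libraries and are not independent.

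In the ob model, loss of leptin itself was the question. Again none of 8 members passed (0% of 12425 genes did), with 1 member among the 1014 genes at an unadjusted p under 0.05, and DESeq2 called 86 genes and no member. Jak1 was higher in ob/ob than in CT ob by 0.68 on the log2 scale (SE 0.211, 95% interval 0.20 to 1.17, adjusted p = 0.555), or 1.61-fold in mean CPM. All 3 ob/ob libraries lay above all 3 CT ob libraries, and 15.8% of the genes tested did not overlap in either direction. The exact permutation test gave p = 0.1, the smallest possible for 3 against 3, which again follows from the lack of overlap. The difference ranged from 0.50 to 0.77 over 13 alternatives, with adjusted p from 0.114 to 0.944. The median SE over all genes tested was 0.298 here and 0.209 in the db model, and missing the threshold does not show that levels were alike.

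The other members of the ob model were tested with the same outcome. Stat3 differed by -0.13 (SE 0.300, 95% interval -0.82 to 0.56), Jak2 by -0.10 (SE 0.227, -0.62 to 0.42) and Tyk2 by -0.09 (SE 0.283). Stat5a differed by -0.23 (SE 0.221), Stat5b by -0.06 (SE 0.226) and Stat6 by -0.06 (SE 0.330, -0.82 to 0.69). Jak3 was at 1.13 ± 0.623 CPM in ob/ob, against 2.32 ± 1.67 in CT ob, with overlapping libraries (exact permutation p = 0.4).

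The first CT ob library stood apart in its oocyte markers. It held the highest levels of Stat3 (79.6 CPM), Stat6 (59.8), Tyk2 (22.4) and Jak3 (4.03) of all 14 libraries, and also the highest summed level of the 10 oocyte markers, 1060 CPM against 38.5 to 714 CPM elsewhere. Without it the ob model gave 0.30 for Stat3 (adjusted p = 0.698), 0.31 for Stat6 (adjusted p = 0.749) and 0.07 for Tyk2 (adjusted p = 0.955), each of the opposite sign to the value with it and none past the threshold. For Jak1 it gave 0.71 (adjusted p = 0.579). Leaving out the highest library lowers the CT ob mean of Stat3, Stat6 and Tyk2 whatever its oocyte markers, so these shifts do not bear on them. The next highest oocyte sum was in the first ob/ob library. That library held 42.7 CPM of Stat3, 48.2 of Stat6, 18.5 of Tyk2 and 0.864 of Jak3. Over the 14 libraries, Pearson's r between the logarithms of the oocyte sum and of the member was 0.61 for Tyk2, 0.39 for Stat6, 0.19 for Stat3 and -0.14 for Jak3, as a description. It was 0.34 for Jak2, 0.14 for Stat2, 0.13 for Stat5b, -0.16 for Stat5a and -0.19 for Jak1. These values include the first CT ob library. The part of the oocyte markers in these levels was not tested.

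Between the mutants, ob/ob against db/db, none of the 9 members passed (0.0159% of 12586 genes, which is 2 genes), and no member reached an unadjusted p under 0.05, although 1031 genes did. DESeq2 called 72 genes and no member. No member had groups that did not overlap, beside 9.91% of all genes. Jak1 differed by -0.06 (95% interval -0.49 to 0.38). The largest difference in size was that of Jak3, -1.04 (SE 0.576, interval -2.26 to 0.19, adjusted p = 0.726), which rests on 4 to 15 counts per library. Stat6 (0.33), Stat5b (0.26), Tyk2 (0.25), Stat5a (0.09), Stat3 (0.04), Jak2 (0.00) and Stat2 (-0.20) filled the range between.

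Between the lean controls, CT ob against CT db, the model, the colony and the handling of its libraries cannot be told apart. Here 6.63% of 12586 genes passed the test, 282 higher and 552 lower in CT ob. None of the 9 members was among them, and 1 reached an unadjusted p under 0.05, as did 3390 genes. Jak1 was lower in CT ob by -0.70 on the log2 scale (SE 0.208, 95% interval -1.14 to -0.26, adjusted p = 0.0552), just short of the threshold. Its groups did not overlap, as for 21.2% of the genes tested (exact permutation p = 0.0571). It passed with DESeq2 (adjusted p = 0.00976), with every gene of at least 1 count tested (0.0263), with genes of at least 10 counts in every library (0.048), and without the first CT db library (0.0241) or the second ob/ob library (0.0462). Over all 20 alternatives the difference stayed between -0.83 and -0.64, with adjusted p from 0.00976 to 0.133. This comparison, that of ob/ob with CT ob and the difference of the mutant effects share the 3 CT ob libraries. The Jak1 differences in them are thus not independent.

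The remaining members did not pass between the controls. Stat5b (0.29, SE 0.200) and Tyk2 (0.25, SE 0.222) had the largest differences after Jak1. Stat6 (0.11), Stat5a (0.06), Jak2 (-0.02), Stat2 (-0.03), Jak3 (-0.03) and Stat3 (-0.08) followed, and all intervals held 0. The difference between the mutant effects (ob minus db) was tested in the fit of all libraries and passed for no gene (0% of 12586 tested, with 1021 at an unadjusted p under 0.05, while DESeq2 called 72 genes and no member). It was 0.64 for Jak1 (SE 0.290, 95% interval 0.03 to 1.26, adjusted p = 0.595) and -1.01 for Jak3 (SE 0.785). For the others it lay between -0.17 (Stat2) and 0.22 (Stat6), with Stat3 at 0.12, Stat5a at 0.04, Jak2 at 0.02, Tyk2 at 0.00 and Stat5b at -0.03.

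The level of Jak1 moved with the summed level of the granulosa cell markers, but the single markers did not all differ in the same direction. Their summed level was 12188 to 17370 CPM in CT ob, below the other 11 libraries, which had 19516 to 30305 CPM in CT db, 20585 to 27318 in db/db and 19428 to 27593 in ob/ob. Across the 14 libraries, Pearson's r between the logarithms of this sum and of Jak1 was 0.89, as a description over libraries that share their groups. The connexin gene Gja1 was the largest part of each group's mean sum (mean 6082 CPM in CT ob and 11014 to 16877 in the other groups) and made up 32.1 to 68.7% of it per library. Without Gja1 the same r was 0.70. In ob/ob against CT ob, 10 of the 14 markers had a positive and 4 a negative difference, and the list median was 0.53 against -0.04 over all genes. None passed, 5 of the 14 did not overlap (15.8% of all genes) and 6 had an unadjusted p under 0.05 (8.16% of all genes). In CT ob against CT db, 5 were above and 9 below 0, with a list median of -0.43 against 0.06. Here 2 of the 14 passed, beside 6.63% of all genes, namely Gja1 (-1.47, adjusted p = 0.00222) and the FSH receptor gene Fshr (-1.72, adjusted p = 0.0163). Also below 0 without passing were Esr2 (-0.65, adjusted p = 0.0663), Fst (-0.94, adjusted p = 0.083) and Inhba (-3.42, adjusted p = 0.119). The same holds for Cyp19a1 (-1.53), Inhbb (-1.06), Nr5a2 (-0.22) and Kitl (-0.16). Running the other way without passing were Amh (1.31, adjusted p = 0.25), its receptor gene Amhr2 (0.88, adjusted p = 0.0886) and Foxl2 (0.57, adjusted p = 0.118). Inha (0.06) and Hsd17b1 (0.01) were close to 0. The 7 endothelial markers were at 23.5 to 45.9 CPM in CT ob and at most at 15.6 CPM elsewhere, with 1 of the 7 above 3 counts in every library. The same r with Jak1 was -0.19 for the oocyte marker sum, 0.24 for Raver2 and -0.08 for the library total. The part of the marker levels in the Jak1 differences was not tested. In pooled cells the share of the RNA that comes from GCs and the level of each gene per GC cannot be told apart.

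**Figure D4:**
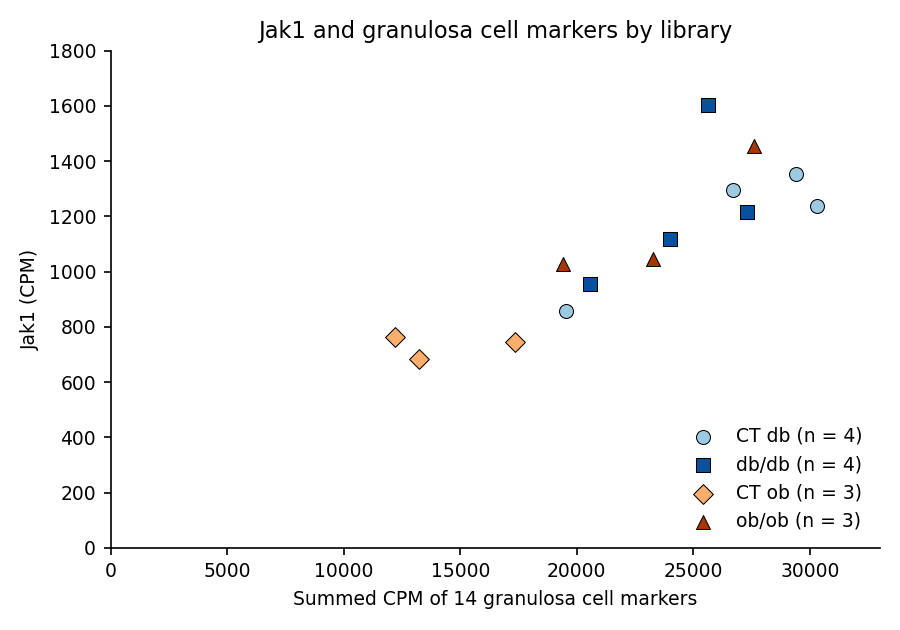
Jak1 level (CPM, y axis) against the summed CPM of 14 granulosa cell markers (x axis), with a symbol per library and shapes and colours for the 4 groups. The 3 CT ob libraries lie at the lower left, at 683 to 762 CPM of Jak1, and the other 11 libraries reach from 857 to 1602 CPM.

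Jak1 is also a neighbour of Lepr, 452 kb from it on chromosome 4 (Lepr at chr4:101574601-101676237). The genes tested within 5 Mb of Lepr were set beside it. In db/db against CT db none of 32 such genes passed (0.00884% of all genes did) and 4 had an unadjusted p under 0.05 (12.5%, beside 7.59% of all genes), and Jak1 had the 30th largest difference in size. In CT ob against CT db, which compares the colonies, 4 of 33 passed, beside 6.63% of all genes, and 7 did not overlap (21.2%, the same share as over all genes). The median size of the difference was 0.52 in the window and 0.37 over all genes. Jak1 was 13th in size. The passing genes were Tm2d1 (-0.84) and Efcab7 (-1.32), lower in CT ob, and Dnai4 (1.29) and Plpp3 (0.94), higher in CT ob. Raver2, which overlaps Jak1, differed by 0.04 (SE 0.299).

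**Figure D5:**
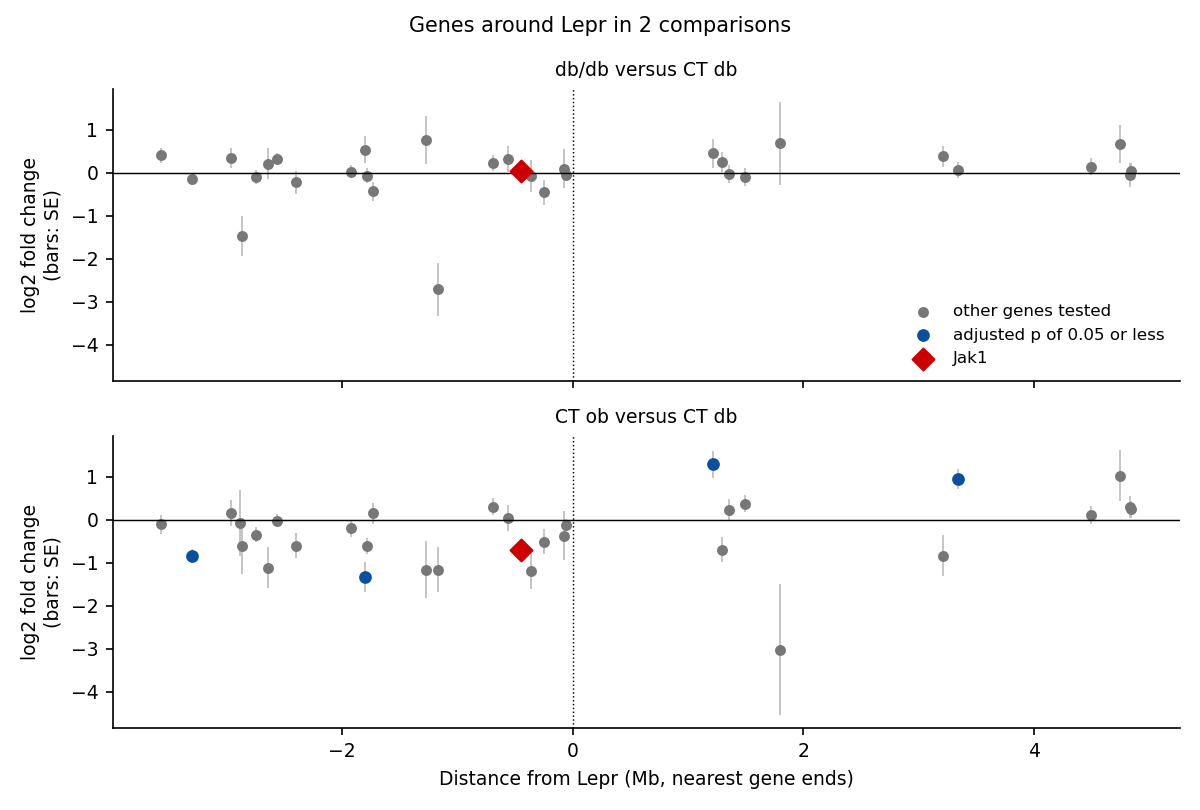
log2 fold change (y axis, bars show the SE) of each tested gene within 5 Mb of Lepr against its distance from Lepr (x axis, Mb), for db/db against CT db (top) and CT ob against CT db (bottom). Jak1 (red diamond) sits at 0.04 in the upper panel and at -0.70 in the lower one, among genes that differ in both directions.

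Members were compared with each other across libraries. Of the 36 pairs of members, 17 had a positive Pearson's r of log2 CPM over the 14 libraries, with a median of -0.02. The pair most alike was Stat5a and Stat5b (r = 0.76), which share reads, followed by Tyk2 and Stat6 (0.60), and the least alike was Jak1 and Tyk2 (-0.44). The gene most like each member among all 12586 was Nt5c3 for Jak2 (r = 0.76), Arhgef18 for Jak3 (0.88), Slc24a5 for Tyk2 (0.90), Mrps9 for Stat2 (0.89), Trim32 for Stat3 (0.80), Dhps for Stat5a (0.90), Dgcr2 for Stat5b (0.89) and Cand1 for Stat6 (0.92). For Jak1 it was Il4 (r = 0.96), at 1 to 20 counts or 0.249 to 3.44 CPM. These are the best of many genes over few libraries and are given as descriptions.

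Receptors, ligands and regulators of the pathway were examined as lists. Of 29 receptor genes that work through JAKs, 14 could be tested between db/db and CT db and 17 between ob/ob and CT ob, and none passed, with list medians of -0.07 and -0.23 (all genes 0.01 and -0.04). The receptor gene with the smallest p in the db model was Ifngr2, a chain of the interferon gamma receptor, at 167 ± 15.3 CPM in db/db, against 126 ± 18.3 in CT db (0.39, SE 0.143, adjusted p = 0.567, no overlap). In the ob model it was Il11ra1, a receptor of interleukin 11, at 18.7 ± 5.36 CPM in ob/ob, against 29.4 ± 6.77 in CT ob (-0.66, SE 0.306, adjusted p = 0.625, no overlap). Between the controls 1 of 16 receptor genes passed, a share near the 6.63% of all genes. It was Ifngr1, the other chain of the interferon gamma receptor, which was lower in CT ob with a log2 difference of -1.08 (SE 0.187, adjusted p = 0.00987), at 28.0 to 34.7 CPM against 52.0 to 78.3 CPM in CT db. It passed in all 20 alternatives. Between the mutants and in the difference of the effects, none of 16 passed.

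Of 19 ligand genes, 2 were tested in the db model, 3 in the ob model and 5 in the fit of all libraries, and none passed in any comparison. Tslp was at 4.21 ± 2.59 CPM in db/db, against 4.86 ± 2.05 in CT db (-0.22, adjusted p = 0.942), and Ctf1, the cardiotrophin gene, at 4.34 ± 0.675 CPM in ob/ob, against 6.65 ± 1.48 in CT ob (-0.61, adjusted p = 0.707). Of 17 inhibitors and phosphatases, 13 and 14 were tested in the models and none passed. Socs3, the feedback inhibitor induced through STAT3, was at 12.8 ± 3.71 CPM in db/db, against 8.01 ± 3.09 in CT db (0.67, SE 0.328, adjusted p = 0.675), with overlapping groups. Pias4, which encodes a SUMO ligase of the family that restrains STATs, was at 31.1 ± 3.70 CPM in ob/ob, against 41.8 ± 6.75 in CT ob (-0.43, SE 0.216, adjusted p = 0.652). Between the controls Pias4 was the 1 of 14 that passed, a share near the 6.63% of all genes, and it was higher in CT ob by 0.78 (SE 0.189, adjusted p = 0.0293). That call was lost in 6 of 20 alternatives: with library size only (0.0533), with every gene of at least 1 count (0.0684), and without library 2 (0.0849) or 4 (0.078) of CT db or library 1 (0.0541) or 3 (0.106) of CT ob.

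All 11 adaptors and partners were tested, and none passed in any comparison. Crebbp, which encodes a coactivator of STATs, was at 146 ± 16.1 CPM in db/db, against 110 ± 25.8 in CT db (0.40, adjusted p = 0.648), and Nmi, whose product binds STATs, at 13.6 ± 1.74 CPM in ob/ob, against 18.4 ± 3.13 in CT ob (-0.44, adjusted p = 0.699). Of 18 genes known as targets of STAT3 and STAT5, 14 were tested in the db model, 13 in the ob model and 14 in the fit of all libraries. None passed in any comparison, with list medians of 0.15 and 0.06 in the models. Vegfa was at 20.0 to 73.1 CPM in db/db, against 10.4 to 27.7 in CT db (1.11, SE 0.370, adjusted p = 0.557). It passed only when every gene with at least 1 count was tested (adjusted p = 0.000325). Cebpb was at 32.3 ± 6.84 CPM in ob/ob, against 20.4 ± 6.88 in CT ob (0.67, SE 0.304, adjusted p = 0.619). Of 11 targets of STAT2 and STAT6, no more than 3 were tested in any comparison and none passed. Bst2, an interferon-induced gene, was at 136 ± 26.7 CPM in db/db, against 109 ± 37.3 in CT db (0.32, adjusted p = 0.763), and Arg1 was at 2.07 to 9.83 CPM in ob/ob, against 1.02 to 2.49 in CT ob (1.38, SE 0.679, adjusted p = 0.647).

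The promoters of the members were searched for the letters that STAT complexes are known to bind. RefSeq windows of 300 bases around the start sites (GRCm38.p6) were at hand for all 9 genes, 11 windows in all. The palindrome TTCNNNGAA was in none of them, against 8.3% of all 32851 windows. The core of the interferon-stimulated response element, a repeated GAAA block with a spacer of any 2 bases, was searched on both strands and found in 1 of the 11 member windows and in 3.44% of all 32851 windows. The member window belongs to Stat2, and a link to the level of Stat2 was not tested. The match, shown in capitals and read on the plus strand as the reverse complement, begins 222 bases before the start site (chr10:128270261-128270300).
Stat2: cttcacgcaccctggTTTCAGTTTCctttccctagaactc
A match describes these letters only.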

How the data were processed

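Per the file headers the deposited values were raw read counts per gene and Ensembl identifier. According to the study's methods the authors used cutadapt for trimming of the 75-base single reads, STAR for mapping to GRCm39 and featureCounts for counting, while the submitters' processing notes name FastQC, Trim Galore 0.6.2, HISAT2 2.1.0 and GRCm38. Of 55414 identifiers, 54749 (98.8%) were found in GENCODE vM39 (GRCm39), which gave symbols and positions. Strand setting and treatment of multimapping reads are not given in the sources used here. Columns were assigned to groups by their names, and libraries are numbered in column order.

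Counts were analysed in R 4.3.3 with edgeR 4.0.16 (TMM, filterByExpr at min.count 10 and min.total.count 15, quasi-likelihood test, Benjamini-Hochberg adjustment, threshold 0.05) on all genes. The db and ob models were fitted separately, and 1 fit of 14 libraries served the other comparisons. CPM used TMM factors over 14 libraries, and log2 CPM a prior count of 2. Group means of single genes were compared by two-sided exact permutation tests. Depth was 2204686 to 8367593 counts per library. Fits were tested on simulated data. Named were all members, the genes of the other lists that passed, otherwise the gene with the smallest p of each list in each model, and the gene most like each member. Gene levels named beside these, and the passing genes around Lepr, were chosen after their values were seen. Alternatives were DESeq2 1.42.0, RLE, upper quartile and library size scaling, other count filters, 1 fit of all libraries and leaving out each library. The members and lists were chosen with earlier results of these data known.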

Additional observations from a re-analysis of the deposited data

Results flagged for a closer look

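Of 18 combinations of member and db model group tested for an outlying library, 1 was set apart: Jak2 was at 41.9 CPM in the second CT db library, while the other 3 libraries lay between 23.9 and 26.1 CPM. The gap was 0.876 of the range, above Dixon's limit of 0.829 for 4 samples, and chance alone sets apart about 1 in 20 groups. Groups of 3 libraries were not tested. No difference between the mutant effects of the models passed for a member.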

How the results depend on the processing

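No paired analysis was possible because the library columns carry no replicate numbers of the labels. No member passed in the db model, the ob model, between the mutants or in the difference of the effects under any alternative run. Between the controls, 1 member (Jak1) passed with DESeq2, with every gene of at least 1 count, with at least 10 counts in every library, and when 1 library was left out (0 to 1). Genes passing in the db model, the ob model, between the mutants, between the controls and in the difference of the effects numbered 44, 86, 72, 1563 and 72 with DESeq2, and 270, 359, 535, 1727 and 329 with every gene of at least 1 count. With library size only there were 2 in the db model and 265 between the controls. With at least 10 counts in every library there were 0 in the db model and 1 between the mutants, and in 1 fit of 14 libraries 0 (db model) and 1 (ob model). Leaving out 1 library gave 1 to 4 genes in the db model (4 without library 3 of db/db), 0 to 1 in the difference of the effects (1 without library 1 of db/db) and 112 to 1199 between the controls (112 without library 3 and 376 without library 1 of CT ob, 138, 482 and 201 without library 2, 3 and 4 of CT db). All 72 levels recomputed with RLE or library size only moved by less than 1 SD.

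Directions of small log2 differences that had not passed were not stable. The sign changed with RLE for Tyk2 in the difference of the effects (0.01), and with upper quartile scaling for Jak2 (0.03), Jak3 (0.01) and Stat2 (0.02) between the controls and Jak2 in the difference of the effects (0.00). With library size only it changed for Stat5b in the db (0.03) and ob model (0.03) and the difference of the effects (0.00), and for Jak3 (0.04) and Stat2 (0.00) between the controls. With every gene of at least 1 count it changed for Stat5b in the ob model (0.02) and the difference of the effects (0.07) and Tyk2 in the latter (0.07).

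Leaving out 1 library, the sign changed within these ranges. In the db model it was Jak1 (-0.12 to 0.14), Stat5b (-0.11 to 0.05), Stat5a (-0.50 to 0.03), Jak2 (-0.23 to 0.11) and Tslp (-0.66 to 0.03). In the ob model it was Stat5b (-0.22 to 0.13), Stat6 (-0.30 to 0.31), Tyk2 (-0.28 to 0.07) and Stat3 (-0.31 to 0.30). Between the mutants it was Jak1 (-0.24 to 0.10), Jak2 (-0.14 to 0.10), Stat3 (-0.10 to 0.13) and Stat5a (-0.07 to 0.34). Between the controls it was Jak2 (-0.11 to 0.21), Stat5a (-0.17 to 0.35), Stat2 (-0.27 to 0.11), Stat3 (-0.52 to 0.10), Stat6 (-0.27 to 0.33) and Jak3 (-0.69 to 0.34). In the difference of the effects it was Stat5b (-0.20 to 0.16), Jak2 (-0.21 to 0.13), Stat3 (-0.06 to 0.56), Stat5a (-0.26 to 0.28), Tyk2 (-0.18 to 0.16) and Stat2 (-0.30 to 0.07). The cause was not tested. Depth limits Jak3 most, with 2 to 21 counts per library.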

Other observations

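Markers of other cell types that could enter a follicle puncture were present at levels that varied between libraries. The summed level of 10 theca and stroma markers was 61.2 to 125 CPM in CT db, 85.2 to 401 in db/db, 79.0 to 186 in CT ob and 58.8 to 113 in ob/ob. The 10 oocyte markers summed to 38.5 to 254 CPM in CT db, 57.1 to 92.1 in db/db, 86.0 to 1060 in CT ob and 170 to 714 in ob/ob. The 5 red blood cell markers summed to at most 17.2, 17.7, 20.9 and 81.5 CPM in CT db, db/db, CT ob and ob/ob. Nearly all of this was Alas2, with means of 11.5, 9.93, 13.2 and 41.6 CPM. The globin genes Hba-a1 and Hba-a2 were at 0 in every library, and Hbb-bs and Hbb-bt gave at most 2 and 1 counts. In the same order of groups, the 12 immune markers summed to at most 16.2, 34.1, 28.9 and 12.1 CPM.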
